A study of Mus musculus with 23 samples.

Results

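The MHC class II presentation genes described here are 7 genes that let a cell show peptides to helper T cells. H2-Aa, H2-Ab1 and H2-Eb1 encode chains of the presenting molecule, Cd74 encodes the invariant chain, H2-DMa and H2-DMb1 encode the peptide-loading molecule, and Ciita encodes the master regulator of the set. They were chosen by name, with earlier results of these data known. Each was read by a probe set to which the platform annotation gives that symbol and no other. All 7 were found, out of 19147 genes named in this way, and each had 1 such probe set, so no probe set had to be picked over another. RNA was measured in the livers of 23 mice, 1 array per mouse: 6 female mice without P2ry13 (GPR86 KO in the labels), 6 female wild-type (WT) mice, 6 male KO mice and 5 male WT mice. P2ry13 encodes a receptor for extracellular ADP. The knockout allele, strain, age, litter and cage of the mice, and whether WT and KO mice were littermates, were left unstated by the labels and the design text. The H2 haplotype is thus unknown here; class II sequences differ between haplotypes, and the signal of a class II probe set can depend on them. Each value below is the log2 of a deposited intensity, so a difference of 1 is a doubling, and since probes differ in how brightly they read, no gene's level is set against another gene's.

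An alpha and a beta chain of MHC class II pair in the endoplasmic reticulum and bind the invariant chain, which fills the peptide groove and sends the complex to endosomes. There proteases cut the invariant chain down to a short remnant, the DM molecule swaps this remnant for a peptide from engulfed material, and the loaded complex moves to the cell surface. Dendritic cells, B cells and macrophages carry most class II. In liver these include Kupffer cells, the resident macrophages, and sinusoidal endothelial cells are known to carry some, whereas resting hepatocytes carry little. CIITA does not bind DNA itself: it is recruited by factors that sit on conserved promoter elements called the X and Y boxes, among them the RFX and NF-Y complexes.

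The arrays went with their labels. P2ry13 read 5.06 to 5.22 in female KO livers, against 6.03 to 6.42 in female WT livers, and 5.07 to 5.34 in male KO livers, against 5.80 to 6.34 in male WT livers. Xist, made from the inactive X chromosome, read 8.42 to 9.78 in female and 4.14 to 5.22 in male livers. Array medians lay between 19.5 and 21.1 on the linear scale, and any pair of arrays correlated at 0.983 to 0.995 over all probe sets. As a measure of background, 3 Y-linked genes read 2.72 to 3.69 in the 12 female livers, which have no Y chromosome. Background below means this range, which rests on few probe sets, and other probe sets may have a higher background. Xist in male livers and P2ry13 in KO livers read above it. Ciita lay within or below that range on 16 of the 23 arrays and H2-DMb1 on 2, while the other 5 genes were above it on every array. H2-DMb1, at 3.59 to 4.93 over all arrays, nevertheless stayed below every reading of P2ry13 in KO livers. A difference in Ciita would therefore have been hard to see on this array.

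The promoters of 3 of these genes carry both boxes in their standard order, and they are shown to let the shared layout be seen. The sequences are from RefSeq (GRCm38.p6), 5′ to 3′ on the strand of the gene, and cover the stretch from 110 to 30 bases before the annotated start. Capitals mark the X letters, which are AAC and TGANG with 2 or 3 bases between them, and the Y letters, TGATTGG. H2-Aa lies at chr17:34287853-34287933 on the minus strand, H2-Eb1 at chr17:34305757-34305837 on the plus strand and H2-DMb1 at chr17:34153081-34153161 on the plus strand.
H2-Aa: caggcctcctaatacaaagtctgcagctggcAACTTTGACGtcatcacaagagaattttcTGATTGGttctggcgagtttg
H2-Eb1: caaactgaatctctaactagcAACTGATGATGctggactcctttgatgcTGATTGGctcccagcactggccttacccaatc
H2-DMb1: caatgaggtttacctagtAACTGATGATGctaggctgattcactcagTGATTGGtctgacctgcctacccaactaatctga
The X letters began 79, 89 and 92 bases before the start in H2-Aa, H2-Eb1 and H2-DMb1, and the Y letters began 29, 28 and 29 bases after the X letters. The X letters were written down after these windows had been read, so their presence here is a description. Among 32851 RefSeq promoter windows of 300 bases, the Y letters occurred on either strand in 7.82% and the X letters in 5.77%. X letters followed on the gene's strand by Y letters that began 10 to 40 bases later were found in 11 windows, which is 0.0335%. Those 11 windows belong to 11 genes: these 3, the class II genes H2-DMb2 and H2-Ob, and 6 others. Neither set of letters occurred in the 2 windows of H2-DMa. H2-Ab1 and Ciita are named only. The promoter of Cd74 was not looked at on its own here, and Cd74 is not among the 11 genes.

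The first comparison asked whether loss of P2ry13 changed the class II genes of the liver. It found no difference that passed the test in any of the 7 genes in either sex, where 0.0547% of all probe sets passed in females and 0.0313% in males (limma, adjusted p under 0.05). The chains, the invariant chain and the loading genes of KO livers overlapped with those of WT livers throughout, and the estimates lay within 0.29 of zero on the log2 scale. How many of all probe sets overlap between KO and WT livers was not counted, so this overlap is not particular to these genes. The 95% intervals of the 3 chain genes reached from -0.21 to 0.48 in females and from -0.39 to 0.37 in males, so changes of up to about that size in either direction are compatible with these arrays.

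H2-Ab1, the beta chain of the I-A molecule, read 8.04, 8.79 and 9.29 as the lowest, median and highest value in female KO livers, against 8.47, 8.56 and 8.73 in female WT livers. In male KO livers the lowest, median and highest values were 7.63, 7.95 and 8.20, against 8.62, 7.81, 7.92, 7.57 and 8.16 in the 5 male WT livers. In females every WT value fell inside the range of the KO values, and in males every KO value fell inside the range of the WT values. KO minus WT was 0.16 (SE 0.16; 95% interval -0.16 to 0.48; limma, adjusted p = 0.924) in females and -0.06 (SE 0.16; 95% interval -0.39 to 0.28; limma, adjusted p = 0.981) in males.

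H2-Aa, the alpha chain that pairs with it, read 7.31, 7.96 and 8.36 as the lowest, median and highest value in female KO livers, against 7.45, 7.68 and 8.06 in female WT livers. It read 6.96, 7.18 and 7.55 in male KO livers, against 7.63, 6.90, 7.16, 6.70 and 7.38 in the male WT livers. The groups overlapped in both sexes. The KO minus WT difference was 0.14 (SE 0.15; limma, adjusted p = 0.935) in females and 0.04 (SE 0.16; limma, adjusted p = 0.987) in males. H2-Eb1, the beta chain of the I-E molecule, read 8.05, 8.64 and 9.16 in female KO livers, against 8.41, 8.57 and 8.83 in female WT livers, and 7.78, 8.09 and 8.30 in male KO livers, against 8.51, 7.93, 8.05, 7.77 and 8.24 in male WT livers. It too overlapped between genotypes, with differences of 0.08 (SE 0.14; limma, adjusted p = 0.965) in females and -0.05 (SE 0.15; limma, adjusted p = 0.983) in males.

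Cd74, which chaperones the chains, read 9.95, 10.56 and 10.74 as the lowest, median and highest value in female KO livers, against 9.98, 10.27 and 10.60 in female WT livers. In males it read 9.50, 9.75 and 10.07 in KO livers, against 9.80, 9.72, 9.52, 9.63 and 9.90 in WT livers. The difference was 0.18 (SE 0.12; 95% interval -0.06 to 0.42; limma, adjusted p = 0.892) in females, which as a ratio spans 0.959 to 1.34, and 0.07 (SE 0.12; limma, adjusted p = 0.967) in males. KO and WT values of Cd74 overlapped in both sexes.

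The loading genes showed the same picture. H2-DMa, the alpha chain of DM, read 5.91, 6.54 and 7.02 in female KO livers, against 6.41, 6.62 and 6.82 in female WT livers, and 5.88, 6.13 and 6.28 in male KO livers, against 6.34, 6.15, 5.32, 5.40 and 6.30 in male WT livers. Its male WT values fell apart into 3 livers at 6.15 or above and 2 at 5.40 or below. Its difference was -0.07 (SE 0.17; limma, adjusted p = 0.98) in females and 0.21 (SE 0.18; limma, adjusted p = 0.899) in males. H2-DMb1, the beta chain of DM, read 4.0, 4.47 and 4.93 in female KO livers, against 3.59, 4.25 and 4.42 in female WT livers, and 3.59, 3.99 and 4.43 in male KO livers, against 4.51, 3.79, 4.07, 3.85 and 3.83 in male WT livers. The largest KO difference of the 7 in females was that of H2-DMb1, at 0.29 (SE 0.15; limma, adjusted p = 0.861), and in males the gene gave 0.01 (SE 0.16; limma, adjusted p = 0.999). H2-DMb1 has a near-identical neighbour, H2-DMb2, which no probe set of the annotation names alone, so its signal may be shared and is uncertain.

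Ciita stayed near background in every group. It averaged 3.62 ± 0.14 in female KO and 3.68 ± 0.09 in female WT livers (SD, n = 6 each). In males it averaged 3.70 ± 0.12 in KO (SD, n = 6) and 3.62 ± 0.08 in WT livers (SD, n = 5). The differences were -0.06 (SE 0.07; limma, adjusted p = 0.941) in females and 0.08 (SE 0.08; limma, adjusted p = 0.917) in males.

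**Figure D1:**
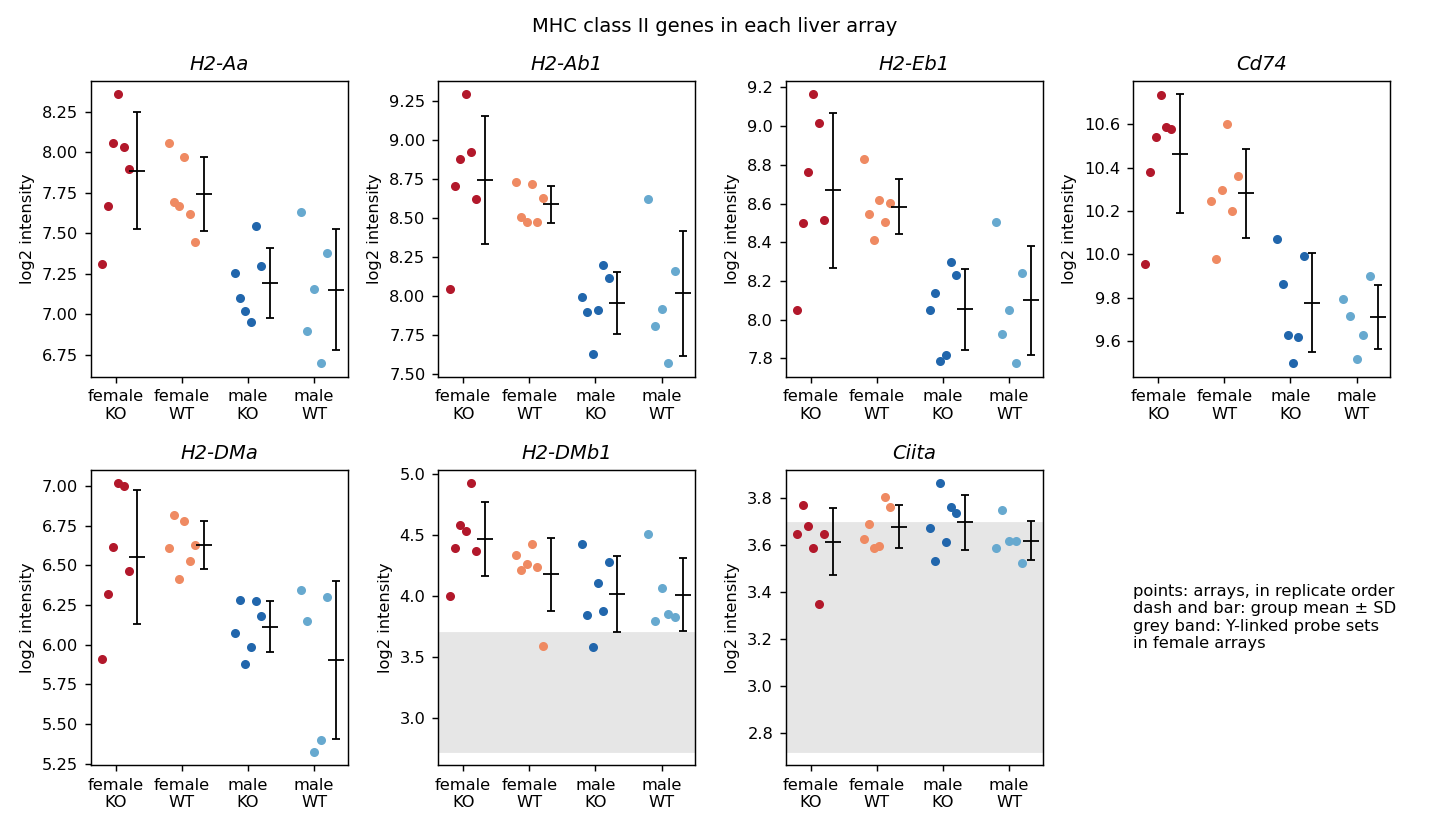
Log2 intensity of the 7 class II genes on each of the 23 arrays, 1 panel per gene with its own vertical range. Points are livers, ordered female KO, female WT, male KO, male WT, and bars are group means with SD. KO and WT points overlap in every panel. The female group means lie above the male group means in all panels but that of Ciita, while female and male points overlap in every panel.

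Averaged over the sexes, the KO minus WT differences were positive for all 7 genes but small, from 0.01 for Ciita to 0.15 for H2-DMb1 (limma, adjusted p = 0.809), with a median of 0.07 beside -0.01 over all probe sets. None passed there, against 0.0808% of all probe sets. None passed the test of a difference in KO effect between females and males either, against 0.0104% of all probe sets, with adjusted p-values of limma between 0.985 and 0.997. By limma and by a plain analysis of variance alike, 0 of 7 genes reached an unadjusted p under 0.05 in females, in males, on average or in the difference of KO effects. By limma 5.87%, 6.14%, 6.91% and 5.14% of all probe sets did so, in that order. A p that misses the threshold does not show that the genotypes are equal, and the intervals above give what the data allow.

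The other genes of presentation followed the same course. None of 43 measured genes from 4 lists passed in any KO comparison. Among them H2-Eb2 (2.76), Marchf1 (3.53), Nfya (3.64), Ifng (3.01), Pdia3 (3.59) and Cd80 (2.66) averaged within or below the background range. A difference in those would have been hard to see. The lists were other class II genes, regulators of class II, class I presentation and costimulation. At an unadjusted p under 0.05 limma gave 1 of the 43 in females, 2 in males, 2 on average and 1 in the difference of KO effects. The shares over all probe sets were 5.87%, 6.14%, 6.91% and 5.14% in the same order, so these counts are near the background share. The smallest p-values in these lists belonged to genes of several kinds. In males Nlrc5, the class I counterpart of Ciita, differed by 0.38 (limma, adjusted p = 0.633) and Ctsb, an endosomal protease, by 0.24 (limma, adjusted p = 0.794). In females Canx, a chaperone of the endoplasmic reticulum, differed by 0.17 (limma, adjusted p = 0.836), Ifngr2, a subunit of the interferon-gamma receptor, by -0.15 (limma, adjusted p = 0.858) and Irf1, an interferon-induced factor, by 0.21 (limma, adjusted p = 0.858). On average over the sexes Nlrc5 differed by 0.22 (limma, adjusted p = 0.646) and Socs1, an inhibitor of cytokine signalling, by -0.11 (limma, adjusted p = 0.702).

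The second comparison set female against male livers, averaged over the genotypes. Here 5 of the 7 genes differed: the 3 chains, the invariant chain and H2-DMa were all higher in females, by 1.46- to 1.60-fold. When the test also required a change of more than 20%, H2-Ab1 and Cd74 passed and the other 3 did not, with limma's adjusted p at 0.0749 for H2-Aa, 0.287 for H2-Eb1 and 0.394 for H2-DMa. Without the minimum change, the share of all probe sets that were higher in females was 5.96%, with a further 4.55% lower. Since the genes and the lists below were chosen with earlier results of these data known, their counts beside such shares are descriptions. With it, 513 of all 38385 probe sets passed in either direction. H2-DMb1 was also higher on average but did not pass, and Ciita did not differ detectably.

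H2-Ab1 averaged 8.74 ± 0.41 in female KO and 8.59 ± 0.12 in female WT livers (SD, n = 6 each), against 7.96 ± 0.20 in male KO (SD, n = 6) and 8.01 ± 0.40 in male WT livers (SD, n = 5). It was 0.68 higher in females (SE 0.11; 95% interval 0.45 to 0.91; limma, adjusted p = 0.000107). The sexes were not cleanly apart, since 7 of 12 female livers lay above every male liver. Male WT replicate 2, at 8.62, was the male liver that reached furthest into the female range, and without it the difference did not lose its call.

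Cd74 averaged 10.46 ± 0.27 in female KO and 10.28 ± 0.20 in female WT livers (SD, n = 6 each), against 9.78 ± 0.23 in male KO (SD, n = 6) and 9.71 ± 0.15 in male WT livers (SD, n = 5). The difference of 0.63 (SE 0.09; limma, adjusted p = 5.9e-06) had the smallest p of the 7 genes, and 10 of 12 female livers lay above every male liver. H2-Aa averaged 7.89 ± 0.36 in female KO and 7.74 ± 0.23 in female WT livers (SD, n = 6 each), against 7.20 ± 0.22 in male KO (SD, n = 6) and 7.15 ± 0.37 in male WT livers (SD, n = 5). Its difference was 0.64 (SE 0.11; limma, adjusted p = 0.000179), with 9 of 12 female livers above every male liver. These values are of a like size to that of H2-Ab1, its partner chain.

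H2-Eb1 averaged 8.67 ± 0.40 in female KO and 8.58 ± 0.14 in female WT livers (SD, n = 6 each), against 8.05 ± 0.21 in male KO (SD, n = 6) and 8.10 ± 0.28 in male WT livers (SD, n = 5), a difference of 0.55 (SE 0.10; limma, adjusted p = 0.000488). H2-DMa averaged 6.55 ± 0.42 and 6.63 ± 0.15 in female KO and female WT livers (SD, n = 6 each), against 6.11 ± 0.16 in male KO (SD, n = 6) and 5.90 ± 0.50 in male WT livers (SD, n = 5), a difference of 0.58 (SE 0.12; limma, adjusted p = 0.00171). In H2-Eb1 8 of 12 and in H2-DMa 10 of 12 female livers lay above every male liver. No gene of the 7 had all its female values above all its male values, which held for 0.787% of all probe sets.

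H2-DMb1 averaged 4.47 ± 0.30 in female KO and 4.18 ± 0.30 in female WT livers (SD, n = 6 each), against 4.02 ± 0.31 in male KO (SD, n = 6) and 4.01 ± 0.30 in male WT livers (SD, n = 5). The difference was 0.31 (SE 0.11; 95% interval 0.08 to 0.54; limma, adjusted p = 0.081), short of the threshold. It passed when any of 4 livers was left out, with limma's adjusted p at 0.0364 without female KO replicate 1, 0.0447 without male KO replicate 1, 0.0221 without female WT replicate 6 and 0.0282 without male WT replicate 2. Ciita differed by -0.01 (SE 0.05; 95% interval -0.12 to 0.09; limma, adjusted p = 0.927), at a level where 16 of 23 arrays could not be told from background.

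The sex difference could be seen within each genotype, in comparisons added after the data had been seen. Within KO mice 4 of 7 genes passed, where 3.21% of all probe sets were higher in females: H2-Aa by 0.69, H2-Ab1 by 0.79, H2-Eb1 by 0.61 and Cd74 by 0.68, with limma's adjusted p between 0.000303 and 0.00782. H2-DMa, at 0.44, did not pass there (limma, adjusted p = 0.16). Within WT mice 4 of 7 also passed, where 2.54% of all probe sets were higher in females: H2-Aa by 0.59, H2-Ab1 by 0.57, Cd74 by 0.57 and H2-DMa by 0.73, with limma's adjusted p between 0.00513 and 0.043. H2-Eb1, at 0.48, missed the threshold there (limma, adjusted p = 0.0651). A gene that passed in 1 genotype and not in the other is not shown to differ between them: the test of that difference is the KO effect compared between the sexes, which no gene passed. In WT mice, Cd74 and H2-DMa had every female value above every male value, which held for 2.18% of all probe sets, and in KO mice no gene of the 7 did, against 2.25% of all probe sets.

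**Figure D2:**
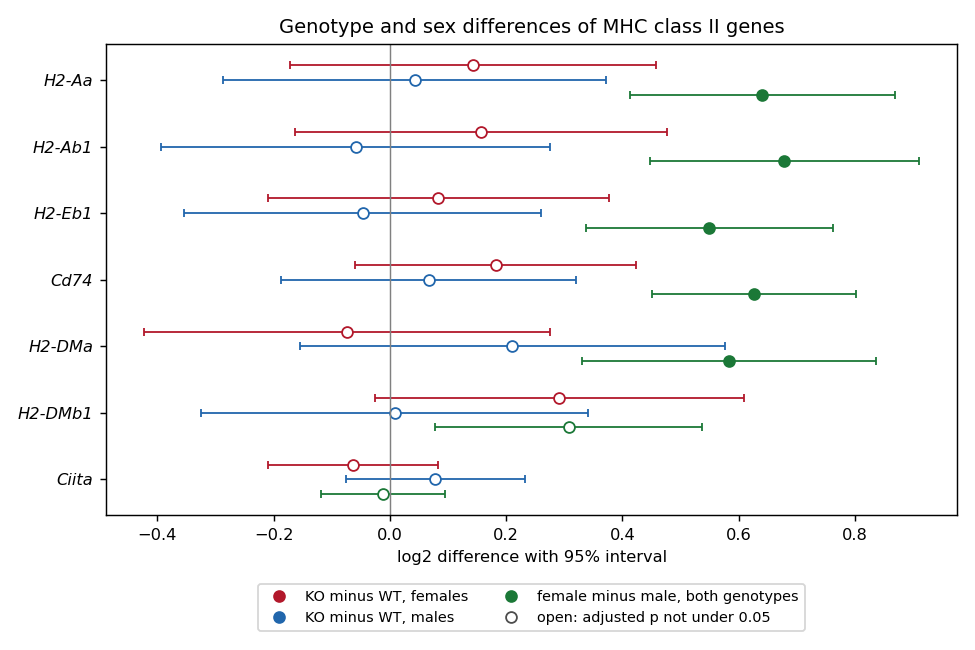
Log2 difference of each class II gene with its 95% interval, for KO minus WT in females and in males and for female minus male. The KO intervals all include zero, and the female minus male intervals of the chains, Cd74, H2-DMa and H2-DMb1 lie above it.

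Markers of Kupffer cells and of sinusoidal endothelial cells were mostly higher in females as well, and their part in the class II difference was not tested. In bulk liver, fewer cells of a type and less RNA per cell cannot be told apart. Of 10 measured Kupffer cell and macrophage markers, 9 were higher in females and none was lower, with a median difference of 0.50. Among them Adgre1, which encodes the macrophage antigen F4/80, differed by 0.61 (limma, adjusted p = 3.6e-08), and Vsig4, a complement receptor of Kupffer cells, by 0.55 (limma, adjusted p = 6.77e-07). The summed intensity of the 10 markers was 6435 to 8357 in female KO and 6214 to 7616 in female WT livers, against 4385 to 6069 in male KO and 4401 to 5949 in male WT livers, so the sexes did not overlap. Sinusoidal endothelial markers were higher in females for 5 of 7, with a median of 0.23. Their sum was 3313 to 3755 in female KO and 3448 to 3875 in female WT livers, against 2874 to 3115 in male KO and 2780 to 3230 in male WT livers. No marker of either list was at or below background.

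Markers of dendritic cells, B cells and T cells read at low levels, averaging 2.85 to 5.65 per marker, and how their differences compare with those of the Kupffer cell list was not tested. Of 10 dendritic cell markers 0 passed in limma, and 0 had an unadjusted p under 0.05, with a median of -0.01, and their sum was 232 to 261 in female KO and 239 to 261 in female WT livers, against 226 to 254 in male KO and 234 to 264 in male WT livers. Of 9 B cell markers 2 were higher in females, with a median of 0.14, and their sum was 152 to 182 in female KO and 142 to 176 in female WT livers, against 137 to 163 in male KO and 146 to 171 in male WT livers. Of 5 T cell markers, Cd3d and Cd3g were higher by 0.38 and 0.48 and Cd4 was lower by 0.32 in females. At or below background were 2 of the B cell, 1 of the dendritic cell and 1 of the T cell markers, the last being Cd3g. Most markers of these 3 cell types averaged lower than P2ry13 in KO livers, which read 5.06 to 5.34. The lack of a call among them therefore says little. None of the 4 measured hepatocyte markers passed in limma, although 2 had an unadjusted p under 0.05, and their median was 0.10. In the same comparison 23% of all probe sets had an unadjusted p under 0.05 by limma. Among 7 stellate cell markers 3 were higher in females and none was lower, with a median of 0.15. Among 5 measured cholangiocyte markers 1 was lower and none was higher, with a median of 0.10.

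Other presentation genes were compared between the sexes in the same fit. Among 13 measured class I genes 7 were higher in females and none lower, with a median of 0.20. They included the immunoproteasome subunits Psmb8 (0.62; limma, adjusted p = 4.66e-07), Psmb9 (0.45; limma, adjusted p = 0.00033) and Psmb10 (0.59; limma, adjusted p = 4.33e-09), which trim proteins into class I peptides. Tapbp, which holds class I at the peptide transporter, was higher by 0.50 (limma, adjusted p = 2.22e-08), and the transporter subunit Tap2 by 0.41 (limma, adjusted p = 4.91e-05). The peptidase Erap1 and the class I heavy chain H2-K1 were higher by 0.19 and 0.14.

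Of 11 other genes of the class II route 3 were higher and none lower, with a median of 0.05. H2-Eb2 and Marchf1 are among the 11 and averaged 2.76 and 3.53, within the background range. All 3 encode endosomal proteases: Lgmn (0.32; limma, adjusted p = 0.000319), Ctsb (0.32; limma, adjusted p = 0.00426) and Ctsd (0.17; limma, adjusted p = 0.00852). H2-Oa and H2-Ob, whose products restrain DM, differed by -0.05 and 0.00 and did not pass. Of 13 regulators 3 were higher and none lower, with a median of 0.11: Ifngr1, a subunit of the interferon-gamma receptor (0.26; limma, adjusted p = 0.000428), Irf8, a factor of myeloid cells (0.22; limma, adjusted p = 0.00421), and Rfxap, a subunit of the RFX complex that binds the X box (0.24; limma, adjusted p = 0.0447). These values are from the brightest probe set of each gene, and other probe sets of the regulators did not all go the same way. A dimmer probe set of Rfxank, another RFX subunit, was lower in females (-0.36; limma, adjusted p = 0.0424), one of Nfyb, a subunit of NF-Y, was higher (0.24; limma, adjusted p = 0.0192), and the dimmer one of Rfxap did not pass (0.21; limma, adjusted p = 0.0978). Of 6 costimulatory genes, which give T cells their second signal or restrain it, Cd83 (0.43), Cd86 (0.32) and Cd274 (0.30) were higher and none was lower. Over all probe sets the median difference was -0.01.

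**Figure D3:**
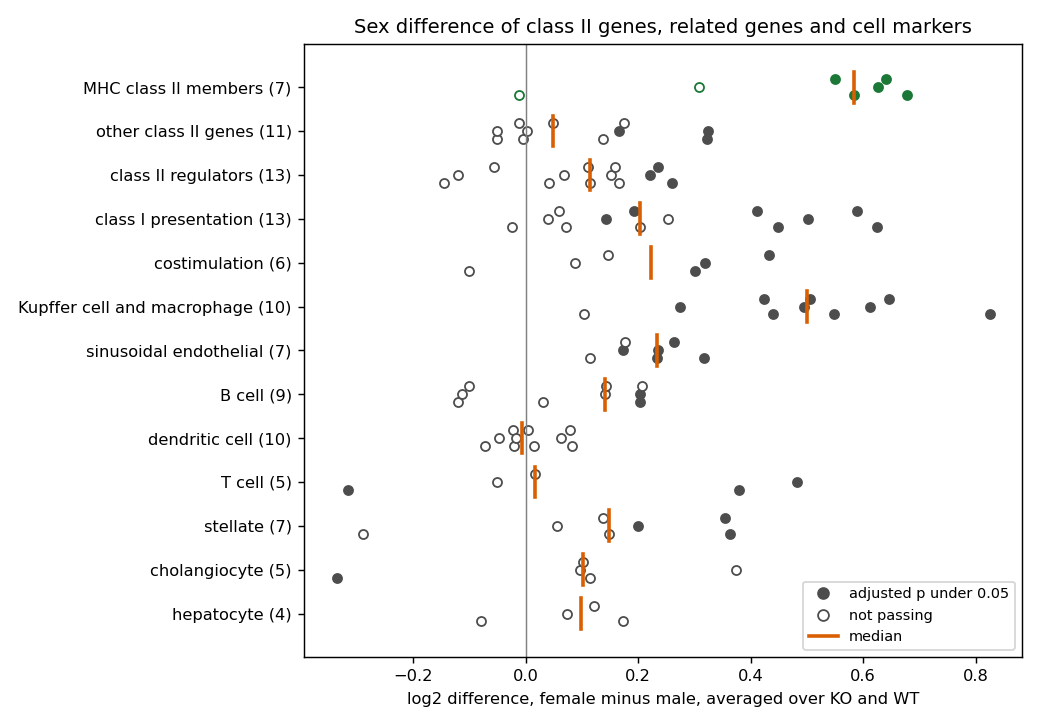
Female minus male log2 difference of each gene of the class II set, of the other presentation lists and of the cell type marker lists, 1 point per gene, with the list median as a bar. The Kupffer cell list has a median of 0.50, the sinusoidal endothelial list 0.23 and the dendritic cell list -0.01.

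The third question was whether the genes varied together among mice of the same sex and genotype. Group means were taken off, and the 21 pairs of genes were correlated over the 23 arrays with a permutation test within groups. The 3 chains tracked each other closely. H2-Ab1 with H2-Eb1 gave r = 0.94 (rho = 0.93), H2-Aa with H2-Ab1 r = 0.90 (rho = 0.82) and H2-Aa with H2-Eb1 r = 0.90 (rho = 0.87). Each had a two-sided permutation p of 1e-05, the smallest these permutations can give, and an adjusted p of 7e-05. Without the 2 livers farthest from the median of the pair's first gene, r was 0.91, 0.86 and 0.85 in the same order. The first gene is the earlier one in the order given at the start, so the livers left out can differ between pairs.

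H2-DMa went with the chains at r = 0.71 to 0.81 and permutation adjusted p between 0.000577 and 0.00854, falling to 0.58 to 0.71 without the 2 farthest livers. Cd74 went with the chains less closely, at r = 0.57, 0.62 and 0.62 for H2-Aa, H2-Ab1 and H2-Eb1 (permutation, adjusted p = 0.0133, 0.00854 and 0.00945). Without the 2 farthest livers these were 0.45, 0.50 and 0.39. H2-DMb1 went with H2-Aa, H2-Ab1 and H2-Eb1 at r = 0.62, 0.60 and 0.56, which were 0.46, 0.39 and 0.51 without the 2 farthest livers. H2-DMa went with Cd74 at 0.60 (permutation, adjusted p = 0.00703). Taken by group, this r was 0.90 in female KO, -0.02 in female WT, 0.33 in male KO and 0.91 in male WT livers. For H2-DMa with the chains it was 0.93 to 0.99 in female KO and 0.28 to 0.42 in female WT livers. In males it was 0.67 to 0.92 in KO and 0.63 to 0.69 in WT livers. Each group holds only 5 or 6 livers, and differences between groups were not tested. In all, 13 of 21 pairs passed, each with a positive r. Without the 2 farthest livers 6 passed, the 3 chain pairs and H2-DMa with H2-Ab1, H2-Eb1 and Cd74, so Cd74 and H2-DMb1 no longer passed with any chain. H2-Eb1 with H2-DMb1 also missed the threshold after quantile normalization (r = 0.47; permutation, adjusted p = 0.0557). H2-DMb1 passed with neither Cd74 (r = 0.44; permutation, adjusted p = 0.0748) nor H2-DMa, its partner in DM (r = 0.40; permutation, adjusted p = 0.105). Ciita had a negative r with all 6 others, from -0.29 to -0.48, and none passed (permutation, adjusted p = 0.0531 to 0.257).

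Much of this rested on 1 mouse. Female KO replicate 1 was the lowest of its group for all 6 genes other than Ciita, and without it 5 of 21 pairs passed: the 3 chain pairs, and H2-Ab1 and H2-Eb1 with H2-DMa. Leaving out any other liver left 11 to 15 pairs. Female KO replicate 4 was the highest of its group for 5 of the 6 genes, and so was male WT replicate 2, while male KO replicate 3 was the lowest of its group for 4.

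**Figure D4:**
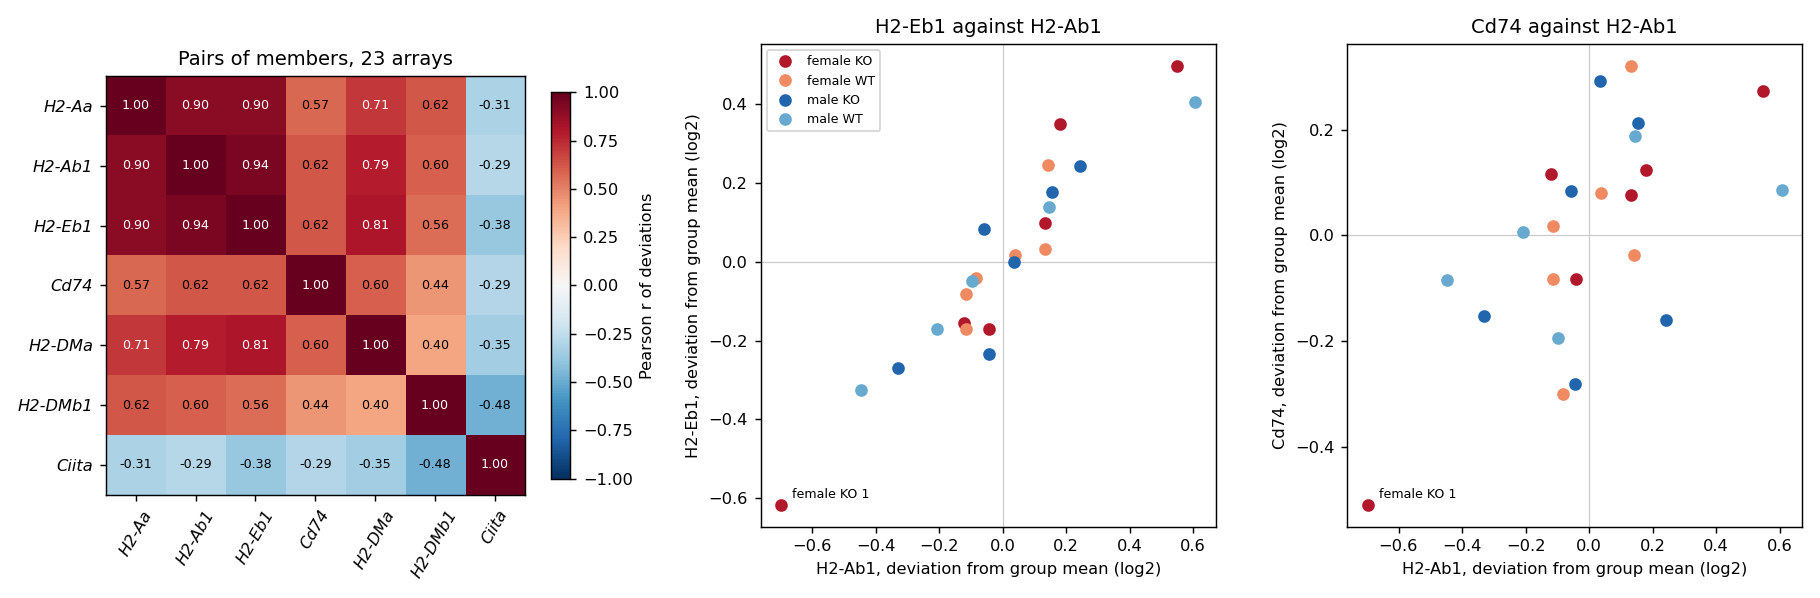
Left, Pearson correlation of the 7 class II genes with each other, over 23 arrays after group means were removed. The other panels plot H2-Eb1 and Cd74 against H2-Ab1 as deviations from group means, with female KO replicate 1 labelled. The block of H2-Aa, H2-Ab1 and H2-Eb1 reads 0.90 to 0.94, and the row of Ciita is negative against all other members.

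Within groups the class II genes followed marker lists only in part. Of 35 relations between the 7 genes and 5 marker lists, 3 passed after adjustment by Pearson's r. H2-Eb1 went with the Kupffer cell mean at r = 0.66 (rho = 0.69; permutation, adjusted p = 0.0227). Its r was 0.65 without the 2 farthest livers, here those farthest from the median of the list mean. The T cell mean, over 5 measured markers, went with H2-Ab1 (r = 0.69, rho = 0.68; permutation, adjusted p = 0.0227) and with H2-Eb1 (r = 0.72, rho = 0.71; permutation, adjusted p = 0.0199), at 0.61 and 0.66 without the 2 farthest livers. The Kupffer cell mean gave r = 0.59 with H2-Aa, 0.54 with H2-Ab1, 0.51 with Cd74 and 0.57 with H2-DMa, none of which passed by r (permutation, adjusted p = 0.0626 to 0.0904). By rho H2-Aa (0.59; permutation, adjusted p = 0.0413), H2-Ab1 (0.62; permutation, adjusted p = 0.0348) and H2-DMa (0.63; permutation, adjusted p = 0.0332) did pass with it. Cd74 did not pass by rho either (0.50; permutation, adjusted p = 0.105). For the T cell mean, the same genes passed by rho as by r. The B cell and dendritic cell means passed with none. Of the 5 markers in the T cell mean, Cd3g averaged 3.51, within the background range.

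The genes most like H2-Aa, H2-Ab1, H2-Eb1 and Cd74 were ranked by the mean of their 4 correlations after group means were removed, among 11506 genes above the median level and over 23 arrays. These are correlations across one set of livers and carry no p. The highest was Cd52, a small surface glycoprotein of leukocytes, at 0.73. After it came Psmb9 at 0.65, Tyrobp, an adaptor of myeloid receptors, Psmb8 and Cyba, a subunit of the phagocyte oxidase, at 0.64 each, and Slc11a1, a metal transporter of macrophage phagosomes, at 0.63. Cd99, Cd5l, a protein secreted by macrophages, Inpp5d, a lipid phosphatase of blood cells, and Spag7 each had 0.62. On the same measure H2-DMa, which was not ranked, had 0.72, H2-DMb1 0.55 and Ciita -0.32.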

How the data were processed

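The deposited table gives 1 linear intensity per probe set and array, which the authors computed by RMA, per the submitters' processing notes, with no version or settings stated. Per the labels' protocols, RNA was amplified to biotin-labelled cRNA. The intensities were converted to log2 with no further scaling. Groups and replicate numbers came from the titles, male WT being numbered 2 to 6. Of 38385 probe sets, 24478 carry 1 symbol, 65 several and 13842 are unnamed here; genes with several probe sets were read by the brightest.

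All comparisons came from one cell-means model of the 23 arrays in limma 3.58.1 (R 4.3.3; 19 residual degrees of freedom, with 7.61 more from the moderated spread). Benjamini-Hochberg adjustment covered every probe set of the table, and a gene passes below an adjusted p of 0.05. Standard errors and 95% intervals are limma's. Rose and fell, higher and lower, are used for genes past that threshold. The number of arrays limits the precision. Correlations used deviations from group means, 100000 two-sided permutations of arrays within groups, and Benjamini-Hochberg over the 21 pairs or the 35 marker relations (Python 3.11.15, numpy 2.4.6).

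Named genes are the 7 members, the members of 4 presentation lists that passed or had the smallest p-values, 10 genes most like the chains, P2ry13, and cell type markers. The members and lists were chosen with earlier results of these data known. Same-numbered KO and WT arrays were checked for pairing: over 11 pairs their deviations correlated at -0.12 to 0.15, with 1 above 0.1, so numbers were not taken as pairs. Alternatives changed the scaling, the filter on dim probe sets, the array weights, the variance model, a minimum change of 20%, the test, the block and the arrays included.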

Additional observations from a re-analysis of the deposited data

Results flagged for a closer look

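H2-DMb1 read 3.59 in female WT replicate 6, well below the other 5 female WT livers at 4.21 to 4.42. Its gap to the nearest of them was 0.745 of the whole range of the group, and the liver lay within the background range of 2.72 to 3.69. It was the only liver that stood apart in this way among 28 groups of values tested. Chance gives about 5% of groups, so 1 such liver is no more than chance would give.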

How the results depend on the processing

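In the KO comparisons 0 of the 7 genes passed under every alternative run and with each array left out in turn. In the sex comparison 5 passed, and 5 to 6 with an array left out. With a minimum change of 20% only 2 passed, H2-Ab1 and Cd74. With the replicate number as a block, 0 genes passed in the KO comparisons and 5 between the sexes; 1 of 6 female KO and 0 of 5 male KO arrays correlated best with the WT array of their own number. The 13 correlated pairs became 6 without the 2 farthest livers, and 5 to 15 with 1 array left out. Small differences that did not pass changed sign. The averaged KO difference of H2-Eb1 was -0.011 with quantile normalization and -0.00020 with array weights. The H2-Aa difference of KO effects was -0.011 with array weights. The sex difference of Ciita was 0.016 with quantile normalization, 0.0099 with equal array medians and 0.059 within WT mice. With 1 array left out, KO differences in females spanned -0.016 to 0.21 for H2-Eb1 and -0.17 to 0.055 for H2-DMa. In males they spanned -0.071 to 0.16 for H2-Aa, -0.17 to 0.093 for H2-Ab1, -0.13 to 0.055 for H2-Eb1 and -0.074 to 0.13 for H2-DMb1. Averaged, they spanned -0.0072 to 0.12 for H2-Ab1, -0.031 to 0.080 for H2-Eb1, -0.0037 to 0.13 for H2-DMa and -0.0094 to 0.034 for Ciita. The difference of KO effects spanned -0.019 to 0.22 for H2-Aa, and the sex difference -0.028 to 0.015 for Ciita. The cause of these changes was not tested.

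Over all probe sets, calls in females numbered 21, and 12 with the minimum change, 2009 with a plain unadjusted analysis of variance and 7 with it adjusted. In males they numbered 12, and 6, 2272 and 3 under the same settings, with 21 without male WT replicate 6. The average gave 31, 12 with the minimum change and 2533 with the plain unadjusted analysis. The difference of KO effects gave 4, and 2002 and 2 with the plain analysis unadjusted and adjusted. The sex comparison gave 4036, 513 with the minimum change, 8751 with the plain unadjusted analysis, 1862 within KO mice and 1632 within WT mice. The filter on dim probe sets removed H2-DMb1 and Ciita, and with 1 probe set per gene no other choice of probe set could be tried. The fit on the compared groups alone was run for the KO comparisons within each sex only. Signal over background limits what can be said of Ciita and H2-DMb1.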

Other observations

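The 5 H2 genes lie together on chromosome 17 and share their stretch with class I genes. In RefSeq gene order 12 genes run from H2-DMa to H2-Eb1, and 5 of those measured are not among the 7 described here. Of these 5, the class I genes Psmb9, Psmb8 and Tap2 were higher in females, Tap1, the other subunit of the peptide transporter, differed by 0.20 (limma, adjusted p = 0.0862), and H2-Ob differed by 0.00 (limma, adjusted p = 0.99). None of the 5 passed in a KO comparison. H2-Ab1, at 0.68, lies 2 places from H2-Ob in that order.

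The spread among mice differed between groups, with no test of it made. The SD of H2-Ab1 was 0.41 in female KO livers and 0.12 in female WT livers, but 0.20 in male KO livers and 0.40 in male WT livers. The SD of H2-DMa was 0.42 in female KO and 0.15 in female WT livers, and 0.16 in male KO and 0.50 in male WT livers. Without female KO replicate 1, the female KO SD was 0.26 for H2-Ab1 and 0.32 for H2-DMa. Without male WT replicate 2, the male WT SD was 0.25 for H2-Ab1 and 0.50 for H2-DMa.

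Marco, a scavenger receptor of Kupffer cells, had a KO minus WT difference of 0.996 in females that did not pass (limma, adjusted p = 0.599), beside a sex difference of 0.83 that did.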
